A study of Macaca mulatta with 102 samples.

Results

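Very long transcripts, defined here as annotated transcripts on the numbered rhesus macaque chromosomes whose genomic span from first to last base exceeds 300 kb, were followed through mammary tissue and milk. The rule found 817 transcripts among the 40807 on numbered chromosomes (2.0%) and the 42701 in the deposited table. Spans ran from 300486 to 1917004 bases with a median of 411484 bases, and 252 members exceeded 500 kb and 42 exceeded 1000 kb. Overlapping members were joined into 473 loci, of which 271 held a single member and 202 held the other 546 members, up to 8 each. The comparison set was the 12990 transcripts of 10 to 50 kb.

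Most of a very long gene is intron, which splicing removes, so the mature messenger RNA is a small share of the span and need not be long. RNA polymerase II needs more time to cross such a gene, and many very long mammalian genes encode cell adhesion molecules, ion channels and synaptic proteins that are used mainly in the nervous system. The level used here, fragments per kilobase of transcript scaled to the mapped reads of the library (FPKM), refers to the length of the mature transcript and not to the genomic span.

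RNA sequencing had been carried out on 34 samples from 6 multiparous rhesus macaque mothers (M1 to M6) that were nursing male infants in an outdoor colony, at days 30 and 90 of lactation. There were 6 mammary biopsies, a single core biopsy per animal (3 at day 30 from M3, M4 and M6 and 3 at day 90 from M1, M2 and M5), 12 milk cell samples (6 per day), 10 milk fat samples (4 at day 30 and 6 at day 90) and, at day 90 only, 6 samples of cell-free milk. Milk cells were the washed pellet and milk fat the floating layer after centrifugation. The study reports lower RNA integrity in macaque milk fat than in milk cells or mammary tissue. It also judged day 30 milk RNA of some animals too poor to sequence. Fat globules can enclose cytoplasm of the secretory epithelial cells, whereas a biopsy also holds stroma and vessels, and milk cells include immune cells. The cell-free sample of M3 carried a skim label, and those of the other animals carried fat labels of their own. All were identified as cell-free only because the study counts 6 such samples at day 90. In bulk RNA, fewer cells of a type and less RNA per cell cannot be told apart.

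Each sample was the mean of 3 technical runs, and each of the 102 runs was closest in profile to another run of its own sample. The median-of-ratios scaling factors ranged from 0.743 to 1.51. Relative depth, recovered from the spacing of low values, ranged from 0.741 to 1.63 of the typical library and overlapped among the 4 sample types. Transcript identifiers could not be paired with gene symbols here, so members are given by rheMac2 position, and the tissue and cell labels could not be checked against marker genes. The exons within each span were not analysed here.

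A smaller share of the very long transcripts than of transcripts of 10 to 50 kb was detected in every sample. At a threshold of 0.1 FPKM, 36.4% of members were detected in the lowest biopsy, 38.7% in the median biopsy and 42.0% in the highest. The corresponding shares were 34.15%, 37.3% and 43.2% in milk cells, 30.5%, 32.6% and 35.4% in milk fat, and 33.8%, 34.15% and 34.9% in cell-free milk. For 10 to 50 kb transcripts the shares ran from 61.1% to 66.7% in biopsies, from 57.9% to 66.2% in milk cells, from 55.0% to 60.6% in milk fat and from 55.9% to 58.7% in cell-free milk. The highest sample of the members lay below the lowest sample of the comparison set in every type.

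**Figure D1:**
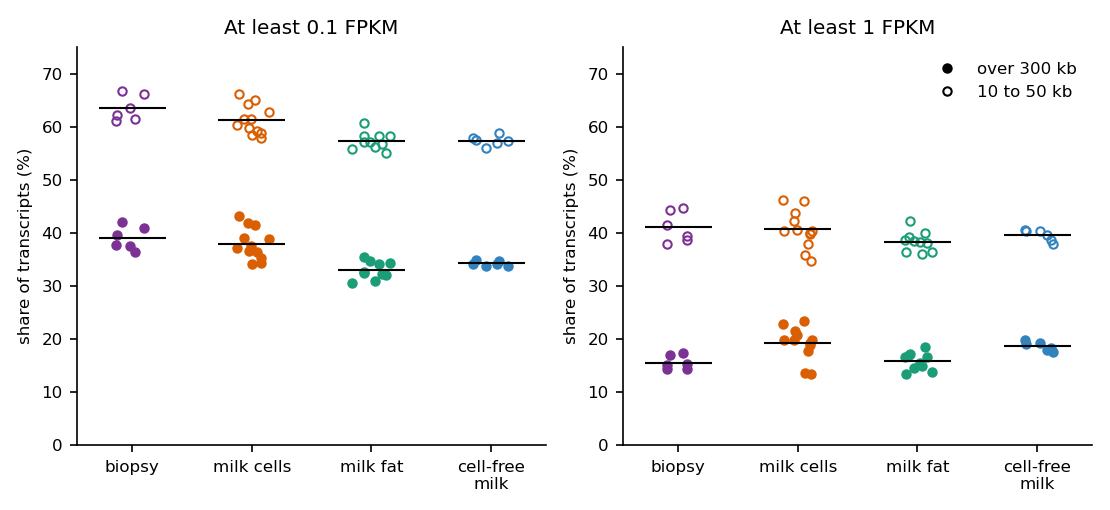
Share of transcripts at or above 0.1 FPKM (left) and 1 FPKM (right) in each sample, in percent, for transcripts over 300 kb (filled) and of 10 to 50 kb (open), by sample type; horizontal lines are means. The filled points reach at most 43.2% on the left, under every open point. On the right the filled means are lowest in biopsies and milk fat, at 15.5% and 15.8%. Single samples there reach down to 13.3% in milk fat and 13.5% in milk cells.

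The detected share of members was lower in milk fat than in the biopsy of the same animal in 6 of 6 animals, with a mean difference of -6.11 percentage points (SD 3.07). The difference for 10 to 50 kb transcripts was -6.37 points (SD 2.93), so in points the 2 sets of transcripts changed by amounts that differed by less than the spread over animals. The mean detected shares in biopsies were 39% and 63.6%, so the loss was larger relative to the members detected. Milk fat also stood below milk cells in 6 of 6 animals, with differences of -5.05 points (SD 2.41) for members and -4.1 points (SD 1.99) for 10 to 50 kb transcripts. The part of the lower RNA integrity of milk fat in these differences was not tested. Between milk cells and biopsies the detected share of members differed by -1.06 points (SD 3.63), higher in milk cells in 3 animals and lower in 3.

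A higher threshold changed the order of the sample types. At 1 FPKM or more, the mean share of members was 15.5% ± 1.27 (SD, n = 6) in biopsies, 15.8% ± 1.64 (SD, n = 10) in milk fat, 18.7% ± 0.833 (SD, n = 6) in cell-free milk and 19.2% ± 3.11 (SD, n = 12) in milk cells. The biopsy share was lower than that of cell-free milk in 6 of 6 animals, with a difference of -3.14 points (SD 0.765), and lower than that of milk cells in 5 of 6, with milk cells 3.71 points higher (SD 3.204). The 10 to 50 kb transcripts showed no such deficit, since 41.0% ± 2.89 of them reached 1 FPKM in biopsies against 40.6% ± 3.57 in milk cells and 39.5% ± 1.13 in cell-free milk.

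Detection declined steadily with span above 50 kb. The median biopsy detected 62.9% of transcripts of 10 to 50 kb, 59.5% of those up to 100 kb, 54.2% of those up to 300 kb, 41.2% of those up to 500 kb and 33.5% of those beyond. Transcripts of 201 to 1000 bases were detected about as rarely as the widest members, at 34.6% in the median biopsy. Within the 817 members, the Spearman correlation of span with mean FPKM was -0.125, and it was -0.124 over the highest member of each of the 473 loci. These correlations describe transcripts measured in the same libraries, and loci with several members may share reads.

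**Figure D2:**
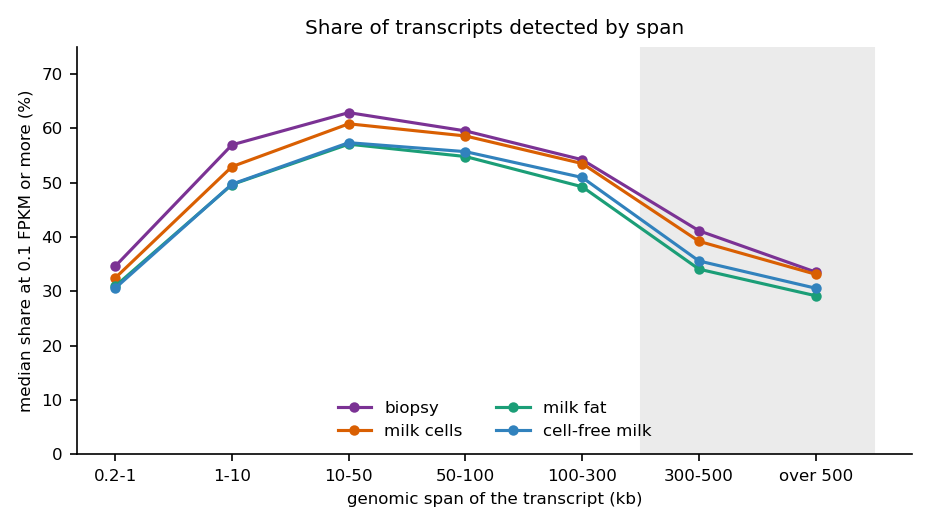
Median share of transcripts at 0.1 FPKM or more, in percent, against genomic span in 7 classes (kb), with a line for each sample type; the shaded classes are the members. All 4 lines peak at 10 to 50 kb and fall to between 29.2% and 33.5% over 500 kb, with milk fat lowest in each class above 50 kb.

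Levels were low for most members. The median of the mean FPKM over all 34 samples was 0.0397 for members and 0.533 for 10 to 50 kb transcripts, and the 90th percentile was 2.38 against 12.4. Of the 817 members, 297 (36.4%) stayed under 0.1 FPKM in all 34 samples, 361 (44.2%) passed it in some samples and 159 (19.5%) passed it in all. Only 22 (2.69%) were listed at exactly 0 throughout, a share close to the 3.52% of 10 to 50 kb transcripts. Among 10 to 50 kb transcripts, 39.5% passed 0.1 FPKM in all 34 samples. A mean of at least 1 FPKM was reached by 147 members (17.99%) and by 42.5% of the comparison set, and a mean of at least 10 FPKM by 17 members (2.08%) and 11.99% of the comparison set. Members contributed between 0.0552% and 0.134% of the summed FPKM of a sample although they were 2.0% of the transcripts on numbered chromosomes. The 12990 transcripts of 10 to 50 kb contributed between 8.69% and 17.85%, also below their share of the 42701 transcripts by number.

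Few members were restricted to a sample type. There were 20 members (2.45%) at 0.1 FPKM or more in all 6 biopsies and below it in all 10 milk fat samples, while 2.02% of 10 to 50 kb transcripts showed that pattern. Detection in all biopsies and in no milk sample of any kind was seen for 3 members (0.367%) and for 0.847% of 10 to 50 kb transcripts. In the opposite direction, 4 members (0.490%) were detected in all 12 milk cell samples and in no biopsy, as were 0.293% of 10 to 50 kb transcripts, and 0 members were detected in every milk fat sample and in no biopsy. These are counts at a threshold, and a member just under it in a shallow library is not shown to be absent.

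Members were not evenly spread over the genome. Chromosome 1 held the most (80 members), chromosome 18 and chromosome 5 the highest shares (3.90% of the transcripts of each) and chromosome 19 the lowest (3 members, 0.12%). Overlap of the genomic span with another annotated transcript was found for 748 members (91.6%) and for 76.0% of 10 to 50 kb transcripts. Exons and strands were not compared, so how many of these share reads that the authors' program divides is not known. A member overlapped a median of 3 other transcripts and a 10 to 50 kb transcript a median of 1.

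Transcripts on either side of the threshold of 300 kb were low. The members just inside it were chr5:106319004-106619489 (300486 bases), with a mean of 0.208 FPKM and a highest value of 1.12 FPKM in a milk cell sample, and chr1:206458487-206759033 (300547 bases), with at most 0.0967 FPKM, reached in a biopsy. The transcripts just outside it, chr17:85523767-85823179 (299413 bases) and chr13:50238245-50537626 (299382 bases), were listed at 0 in all 34 samples. The widest members were also near or at 0. The widest, chr12:3737013-5654016, reached no more than 0.00381 FPKM, and chr8:3183979-5031968 no more than 2.14e-06 FPKM. The next in width, chr14:81727318-83572307, was measurable, with a median of 0.0291 FPKM in biopsies, 0.0709 in milk cells, 0.0518 in milk fat and 0.121 in cell-free milk.

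The most abundant member, chr3:165201800-165642138 (440339 bases), was high everywhere. Its lowest, median and highest FPKM were 41.5, 58.4 and 63.2 in biopsies, 46.4, 69.2 and 102 in milk cells, 82.9, 98.0 and 138 in milk fat, and 80.3, 94.6 and 104 in cell-free milk. All 10 milk fat samples exceeded all 6 biopsies, and the biopsy and milk cell ranges overlapped. Its level on the log2(FPKM + 1) scale was 0.67 higher in milk fat than in biopsies (SE 0.10, adjusted p = 0.000133) and 0.64 higher than in milk cells (SE 0.10, adjusted p = 0.000551), each in 6 of 6 animals. The difference between milk cells and biopsies was 0.03 (SE 0.11, adjusted p = 0.829).

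Of the 4 members next in abundance, chr13:89408183-89712646 differed most between sample types and is described with the called members below. The member chr17:80454530-80875626 had median FPKM of 40.7 in biopsies, 47.0 in milk cells, 41.6 in milk fat and 48.0 in cell-free milk, and passed the test in none of the 6 comparisons of sample types. The same was true of chr15:9006710-9362104, with medians of 44.8, 43.3, 37.3 and 49.3 FPKM in that order. The member chr7:129550574-130286307 (735734 bases) had medians of 18.2, 18.2, 26.8 and 27.9 FPKM, and its log2 level in milk fat exceeded that in milk cells by 0.49 (SE 0.12, adjusted p = 0.00507) and that in biopsies by 0.37 (SE 0.12, adjusted p = 0.0194). Its log2 difference, biopsy minus cell-free milk, was -0.39 (SE 0.14, adjusted p = 0.04).

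Differences between sample types were tested with limma on every transcript with a mean of at least 1 FPKM in the samples compared, after averaging the days of an animal, and a transcript was called at a Benjamini-Hochberg adjusted p under 0.05 and a change of over 3-fold. The filter on the mean kept 130 to 161 of the 817 members, depending on the comparison, and 633 members entered none of the 9 tests of types or days. The shares below therefore concern expressed members only. A fold change on the log2(FPKM + 1) scale understates the change of a low transcript. Replicates were different animals in every group, and p-values measure the spread between these 6 animals.

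Between biopsies and milk fat, 7 of 130 tested members were called. Higher in biopsies were 6 members (4.62%) against 6.17% of all 13413 transcripts tested, and higher in milk fat was 1 member (0.769%) against 3.09% of all. At an adjusted p under 0.05 with no threshold on fold, 39 members (30.0%) were higher in milk fat, where the share over all transcripts was 29.9%, and 23 (17.7%) were higher in biopsies, where it was 25.0%. The median difference, milk fat minus biopsy, was 0.11 for members, -0.02 for 10 to 50 kb transcripts and 0.07 for all tested, and the interquartile range of the members ran from -0.29 to 0.54. With no filter on low values, 66 members were higher in milk fat and 139 in biopsies. The split of all transcripts with no filter is not given here, so that turn is not shown to be particular to members. With FPKM as deposited, without scaling, the median over all tested transcripts moved from 0.07 to 0.23 and the members split 48 to 17, so the direction of single small differences depends on the scaling.

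Between biopsies and milk cells, 6 of 159 tested members were called, 2 higher in milk cells (1.26% against 1.82% of all 14172 transcripts) and 4 higher in biopsies (2.52% against 4.25%). Without the fold threshold, 53 members (33.3%) were higher in milk cells, compared with 18.1% of 10 to 50 kb transcripts and 21.5% of all tested. In biopsies 17 members (10.7%) were higher, compared with 24.1% and 21.4%. More of the tested members were higher in milk cells than in biopsies, whereas more of the 10 to 50 kb transcripts were higher in biopsies. The split of the members rests on the filter, since with no filter on low values 95 were higher in milk cells and 101 in biopsies. Whether the split of all transcripts moved likewise is not given here. The median difference, milk cells minus biopsy, was 0.15 for members and -0.03 for the comparison set, and that gap of 0.18 was positive in 6 of 6 animals (0.11 to 0.28, SD 0.07). It remained positive in each class of mean level, at 0.26 for 1 to 2 FPKM, 0.25 for 2 to 5 FPKM and 0.10 above 5 FPKM.

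Between milk cells and milk fat, 3 of 153 tested members were called, 1 higher in milk fat (0.654% against 0.569% of all 13521 transcripts) and 2 higher in milk cells (1.31% against 1.07%). Without the fold threshold, 22 members (14.4%) were higher in milk fat and 29 (18.95%) in milk cells. The shares over all transcripts were 25.6% and 18.1%. With FPKM as deposited the members split 12 to 25, and with scaling to the 75th percentile 14 to 45. The median over all tested transcripts also moved, from 0.0518 to 0.000644 and -0.055 in those fits. The median difference, milk fat minus milk cells, was -0.13 for members and 0.03 for 10 to 50 kb transcripts, and the gap was negative in 6 of 6 animals (-0.27 to -0.08).

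**Figure D3:**
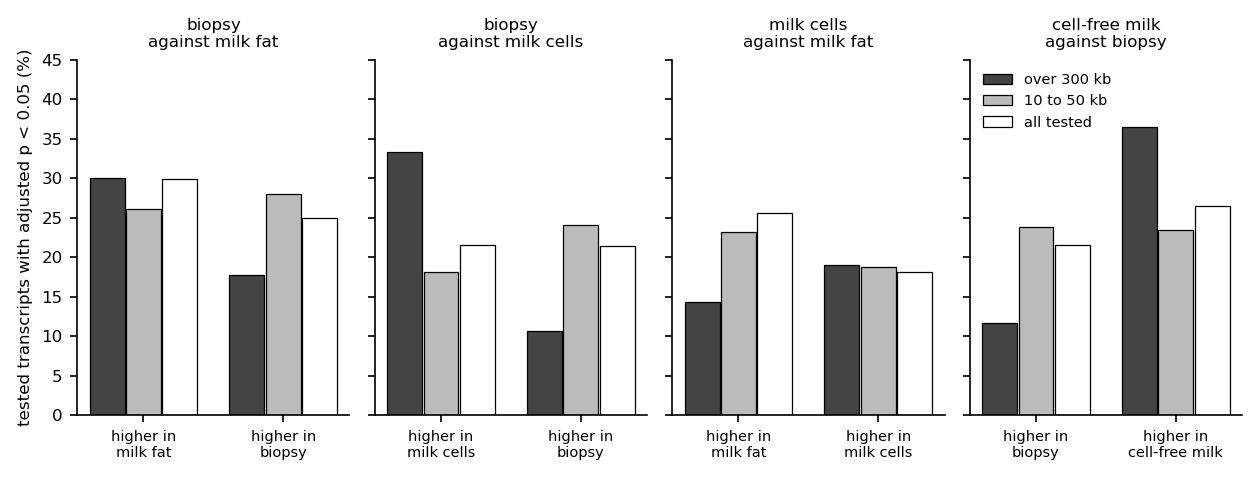
Percent of tested transcripts with a limma adjusted p under 0.05 in each direction, for members over 300 kb (dark), transcripts of 10 to 50 kb (grey) and all tested transcripts (white), in 4 comparisons. The dark bars are tallest towards milk cells (33.3%) and cell-free milk (36.6%) and lowest towards biopsies (10.7% and 11.7%) in those comparisons.

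The larger share of transcripts higher in milk cells was also seen below 300 kb. Higher in milk cells than in biopsies were 28.5% of tested transcripts of 50 to 100 kb and 33.2% of those of 100 to 300 kb, beside 31.1% of members up to 500 kb and 40.0% of the 40 tested members beyond. Relative to milk cells, a higher level in milk fat was found for 23.2% of transcripts of 10 to 50 kb but 11.6% of those of 50 to 100 kb, 12.2% of those of 100 to 300 kb, 15.7% of members up to 500 kb and 10.5% of members beyond. From 50 kb upwards the latter share stayed between 10.5% and 15.7%. Transcripts of 201 to 1000 bases, at 28.1% higher in milk cells than in biopsies, also stood above those of 10 to 50 kb, at 18.1%.

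Cell-free milk was set against each of the other types. Against milk fat at day 90, 0 of 144 tested members were called by limma with the fold threshold, where 0.463% of all 12730 transcripts were, and 58 members (40.3%) had an unadjusted p under 0.05, beside 43.0% of all. At an adjusted p alone, 8 members (5.56%) were higher in milk fat and 25 (17.4%) in cell-free milk, and the shares over all transcripts were 17.1% and 13.4%. With the animal as a replicate block, these became 16 and 49 members, of 47.1% called among all transcripts. The 33 members became 17, 16, 17, 19 and 17 without M1, M2, M3, M4 and M6 and 32 without M5. Unscaled FPKM gave a split of 1 to 36 and scaling to the 75th percentile 2 to 39. The median over all tested transcripts also moved, from 0.0191 to -0.0817 and -0.0556 in those fits.

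Against milk cells at day 90, 1 of 161 tested members was called (0.621%, against 0.292% of all 13371 transcripts), and 2 members passed the adjusted p alone (1.24%, against 1.15% of all), or between 0 and 4 when an animal was left out. With the replicate block, 9 members passed, beside 7.16% of all transcripts. The median difference, milk cells minus cell-free milk, was 0.04 for members and -0.05 for 10 to 50 kb transcripts, and their gap was 0.08 with an SD over animals of 0.08.

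Against biopsies, 9 of 145 tested members were called, 6 higher in biopsies (4.14% against 5.79% of all 13700 transcripts) and 3 higher in cell-free milk (2.07% against 1.66%). Without the fold threshold, 53 members (36.6%) were higher in cell-free milk, where the share was 23.5% of 10 to 50 kb transcripts and 26.5% of all, and 17 (11.7%) were higher in biopsies, where it was 23.9% and 21.5%. With no filter on low values the split turned, to 88 higher in cell-free milk and 125 in biopsies. The split of all transcripts with no filter is not given here. This comparison shares its biopsies with those above and is not independent of them, and 3 of the biopsies were taken at day 30. The median difference, biopsy minus cell-free milk, was -0.22 for members and 0.00 for the comparison set, and the gap was negative in 6 of 6 animals.

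Across the 6 comparisons 11 members at 9 loci were called, and 112 members at 97 loci passed the adjusted p alone at least once. In total, 184 members entered at least 1 test. The share of all transcripts called at least once is not given here, so these totals do not set members apart. All 11 are described here, 5 of them (at chromosome 2 position 166577930, chromosome 5 positions 11330534 and 140333590, chromosome 7 position 169046291 and chromosome 9 position 24397427) outside the rule for named members and so chosen after their values were seen.

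**Figure D4:**
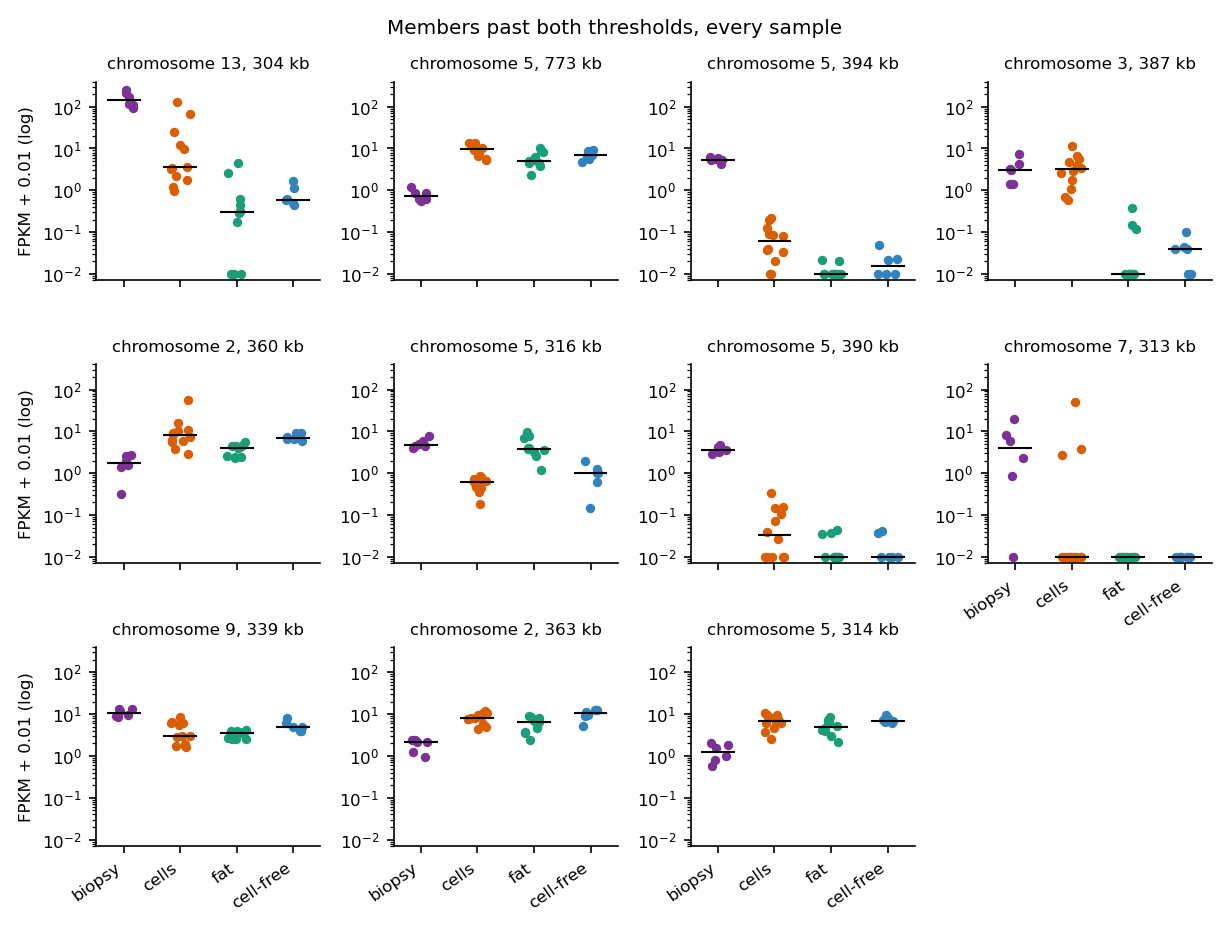
FPKM + 0.01 on a log axis for every sample of each type, with a panel for each of the 11 called members, named by chromosome and span; horizontal lines are medians. The chromosome 13 member falls from a biopsy median of 143 FPKM to under 1 FPKM in milk fat and cell-free milk, and the panels on chromosome 5 show members that are high in biopsies alone, low in biopsies alone, or low in milk cells.

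The steepest change was at chr13:89408183-89712646 (304464 bases, ENSMMUT00000011476). Biopsies ranged from 90.9 to 246 FPKM with a median of 143, milk cells from 0.937 to 128 with a median of 3.53, milk fat from effectively 0 to 4.5 with a median of 0.292, and cell-free milk from 0.444 to 1.66 with a median of 0.583. All 6 biopsies exceeded every milk fat and cell-free sample, and overlapped the milk cells only through the day 30 sample of M2 (128 FPKM). The log2 difference was -6.73 in milk fat (SE 0.20, adjusted p = 5.11e-11) and -4.40 in milk cells (SE 0.56, adjusted p = 4.79e-05) relative to biopsies, and -2.33 in milk fat relative to milk cells (SE 0.55, adjusted p = 0.0052). Each was in the same direction in 6 of 6 animals, and without M2 the milk cell difference from biopsies was -4.51 (adjusted p = 0.000295). It overlapped 6 other annotated transcripts, another member among them.

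A pair of overlapping members at chr5:11326169-11720617 (394449 bases, ENSMMUT00000032521) and chr5:11330534-11720509 (389976 bases) was high in biopsies and near 0 in milk. The first ranged from 4.19 to 6.42 FPKM in biopsies with a median of 5.42, and reached at most 0.207 FPKM in milk cells, 0.0112 in milk fat and 0.0387 in cell-free milk. The second ranged from 2.80 to 4.60 FPKM in biopsies and reached at most 0.316 FPKM in any milk sample. The groups did not overlap for either. The log2 differences from biopsies were -2.78 in milk fat (SE 0.14, adjusted p = 8.96e-09) and -2.70 in milk cells (SE 0.14, adjusted p = 1.65e-08) for the first, and -2.28 and -2.22 for the second. Reads of the pair may be divided between the overlapping models, and both results rest on the same locus.

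At chr3:180058572-180446018 (387447 bases) the member was present in biopsies and milk cells and nearly missing from the other milk fractions. Biopsies ranged from 1.41 to 7.30 FPKM and milk cells from 0.586 to 11.6, with medians of 3.09 and 3.21. Milk fat reached at most 0.364 FPKM and cell-free milk at most 0.0909, so neither overlapped biopsies or milk cells. The log2 difference of milk fat was -2.04 from biopsies (SE 0.26, adjusted p = 2.97e-05) and -1.81 from milk cells (SE 0.25, adjusted p = 0.000313), and that of milk cells from biopsies was -0.22 (SE 0.34, adjusted p = 0.62). Milk cells exceeded cell-free milk by 1.61 (SE 0.27, adjusted p = 0.0136), a call that was lost when M2, M3, M4 or M5 was left out. It overlapped 22 other transcripts.

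The member chr7:169046291-169359348 (313058 bases) was uneven among animals. Biopsies held effectively 0 in M1 and 0.862, 2.32, 5.71, 8.17 and 19.9 FPKM in M2, M3, M4, M6 and M5. Of the 12 milk cell samples 9 were effectively 0, and the other 3 held 2.77 FPKM (M5, day 30), 3.69 FPKM (M2, day 30) and 51.6 FPKM (M5, day 90). Milk fat and cell-free milk were effectively 0 in all samples. The difference of milk fat from biopsies was -2.17 (SE 0.56, adjusted p = 0.00564), seen in 5 of 6 animals. It overlapped 10 other transcripts in a locus of 8 members, so any division of reads among them is uncertain.

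At chr9:24397427-24736457 (339031 bases), biopsies ranged from 8.58 to 13.2 FPKM, milk cells from 1.68 to 8.61, milk fat from 2.49 to 4.16 and cell-free milk from 3.89 to 7.89. Biopsies overlapped the milk cells only at the M4 sample of day 90. Milk fat was lower than biopsies by 1.61 on the log2 scale (SE 0.20, adjusted p = 2.51e-05), in 6 of 6 animals, and the call was lost to the fold threshold without M1, M2 or M3 and with unscaled FPKM.

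Several members were higher in milk than in biopsies. At chr2:114636656-114996919 (360264 bases, ENSMMUT00000005954) biopsies ranged from 0.312 to 2.78 FPKM, milk cells from 2.92 to 56.0, milk fat from 2.26 to 5.58 and cell-free milk from 6.00 to 9.29. Every milk cell and cell-free sample exceeded every biopsy, while milk fat overlapped them. Milk cells were 1.66 higher on the log2 scale (SE 0.33, adjusted p = 0.00162), and 1.21 higher (adjusted p = 0.000902) and under the 3-fold threshold without M2, whose day 30 sample held the 56.0 FPKM.

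The members chr2:166577930-166940747 (362818 bases) and chr5:140333590-140647427 (313838 bases) were called only against cell-free milk. For the first, biopsies ranged from 0.954 to 2.43 FPKM and cell-free milk from 5.11 to 12.7, and for the second from 0.560 to 2.04 and from 6.15 to 9.49. Neither pair of ranges overlapped, and the log2 differences, biopsy minus cell-free milk, were -1.68 (SE 0.24, adjusted p = 0.00012) and -1.69 (SE 0.17, adjusted p = 6.66e-06). Milk cells stood above biopsies by 1.43 and 1.55, with adjusted p of 0.000148 and 4.06e-05 but below the 3-fold threshold. Under alternative settings these differences reached as much as 1.81 and 2.1, past 3-fold. No other annotated transcript overlapped the second.

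The remaining locus held members that moved in opposite directions. Its members start at the same base of chromosome 5, chr5:142496720-143269472 (772753 bases, ENSMMUT00000003140) and chr5:142496720-142812827 (316108 bases). The longer ranged from 0.541 to 1.19 FPKM in biopsies, from 5.34 to 13.7 in milk cells, from 2.30 to 10.1 in milk fat and from 4.85 to 8.95 in cell-free milk. The shorter ranged from 3.93 to 7.54 FPKM in biopsies, from 0.177 to 0.827 in milk cells, from 1.19 to 9.54 in milk fat and from 0.138 to 1.91 in cell-free milk. For the longer, biopsies lay below all milk samples, and for the shorter, milk cells and cell-free milk lay below all biopsies while milk fat overlapped them.

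Relative to biopsies, the longer was 2.31 higher in milk cells on the log2 scale (SE 0.13, adjusted p = 2.45e-08) and 1.63 higher in milk fat (SE 0.18, adjusted p = 1.05e-05). The shorter changed by -2.12 in milk cells (SE 0.10, adjusted p = 6.47e-09) and by -0.47 in milk fat (SE 0.22, adjusted p = 0.0884), and milk fat exceeded milk cells by 1.65 (SE 0.22, adjusted p = 0.000241). Each comparison that involved milk cells had the same direction in 6 of 6 animals. Leaving out M6 took the longer below the 3-fold threshold in milk fat (1.55, adjusted p = 5.35e-05), and leaving out M2 or M3 did so for the shorter between milk cells and milk fat (1.5 and 1.54). The longer held between 9.44% and 17.8% of the summed FPKM of the pair in biopsies, between 89.8% and 96.8% in milk cells, between 37.8% and 89.5% in milk fat and between 82.4% and 97.2% in cell-free milk. The sum itself differed much less, with medians of 5.47, 10.3, 10.3 and 7.96 FPKM in biopsies, milk cells, milk fat and cell-free milk. The summed difference was 0.38 for milk cells (SE 0.12, adjusted p = 0.0227) and 0.41 for milk fat (SE 0.15, adjusted p = 0.0362) relative to biopsies, neither past 3-fold. The division rests on the authors' estimate of which reads belong to which overlapping model.

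With samples taken as unpaired, few members and few of all transcripts differed by lactation day. In milk cells, 0 of 167 tested members were called between days 30 and 90 by limma with the fold threshold, where 0.0941% of all 13815 transcripts were. At an adjusted p alone 9 members passed (5.39%, against 5.15% of all), 8 higher and 1 lower at day 90, and 55 members (32.9%) had an unadjusted p under 0.05, beside 29.4% of all. With the animal as a replicate block, 40 members passed, 33 higher and 7 lower at day 90, beside 25.0% of all transcripts. The count at an adjusted p alone was 0 without M1, M2, M5 or M6, 1 without M4 and 36 without M3.

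In milk fat (4 against 6 samples) 0 of 127 members passed an adjusted p of 0.05 in limma, with or without the replicate block, and 0% of all transcripts did in the fit without it. There were 6 members (4.72%) with an unadjusted p under 0.05, as for 5.24% of all. In biopsies (3 against 3 samples from different animals) 0 of 132 members passed in limma, again with 0% of all, and 6 (4.55%) had an unadjusted p under 0.05, as did 3.197% of all.

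The member with the smallest day p in both milk cells and milk fat was chr9:21015934-21396874 (380941 bases). In milk cells it ranged from 2.30 to 6.51 FPKM at day 30 with a median of 4.97, and from 0.639 to 2.40 FPKM at day 90 with a median of 1.62. The ranges met at their edges, where the lowest day 30 sample lay under the highest of day 90, and the level fell by 1.09 on the log2 scale (SE 0.16, adjusted p = 0.0309, or 0.00751 with the replicate block), in 6 of 6 animals. In milk fat the values were 1.47 to 5.83 FPKM at day 30 and 0.510 to 1.75 at day 90, a difference of -1.08 (SE 0.23) in 4 of 4 animals whose adjusted p was 0.61. The biopsies held 0.287, 0.459 and 1.1 FPKM at day 30 and 0.0633, 0.105 and 0.191 at day 90. The adjusted p in milk cells rose above 0.05 without M1, M2, M5 or M6, with unscaled FPKM and with no filter on low values, while the difference stayed between -1.16 and -1.02 in those fits.

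In biopsies the smallest day p belonged to chr2:154325633-154660633 (335001 bases), which held 1.59, 3.29 and 3.49 FPKM at day 30 and 4.005, 4.20 and 4.92 at day 90. The groups did not overlap, but the difference of 0.78 (SE 0.16) had an adjusted p of 0.96.

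Differences between animals were tested in milk cells with an F test over the 6 animals, adjusting for day. At an adjusted p under 0.05 it found 5 of 167 members (2.99%) and 7.42% of all 13815 transcripts. The milk samples of an animal shared a sequencing pool with those of another animal (M1 with M2, M3 with M4 and M5 with M6), and the F test over all 6 animals does not separate pools from animals. The count was 0 without M3, 2 to 4 without another animal, and 30 with unscaled FPKM. Shares of all transcripts in those fits are not given here. Of the 5, the member on chromosome 4 was named by rule and the others after their values were seen.

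The smallest p belonged to chr4:141218988-141594034 (375047 bases; F = 27.8, adjusted p = 0.00932). In milk cells M3 held 3.33 and 2.74 FPKM and the other animals 8.25 to 22.2. M3 was also the lowest animal in the samples that the test did not use, with 1.76 FPKM against 4.95 to 13.1 in biopsies, 2.36 and 2.54 against 12.9 to 30.4 in milk fat and 3.77 against 10.8 to 27.7 in cell-free milk. Its values never overlapped those of the other 5 animals in any sample type, M4 of the same pool included, whose milk cells held 17.4 and 11.8 FPKM.

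The same animal stood apart at chr15:93404356-93766321 (361966 bases; F = 16.7, adjusted p = 0.0208). M3 held 0.105 and 0.0146 FPKM in milk cells, against 1.30 to 4.11 in the others. In the samples outside the test it held 0.195 FPKM against 0.998 to 2.12 in biopsies, 0.0757 and 0.0939 against 0.823 to 2.90 in milk fat and 0.0676 against 1.74 to 3.43 in cell-free milk. The separation was again complete in all 4 sample types, and milk cells of M4, in the same pool, held 3.91 and 2.66 FPKM.

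**Figure D5:**
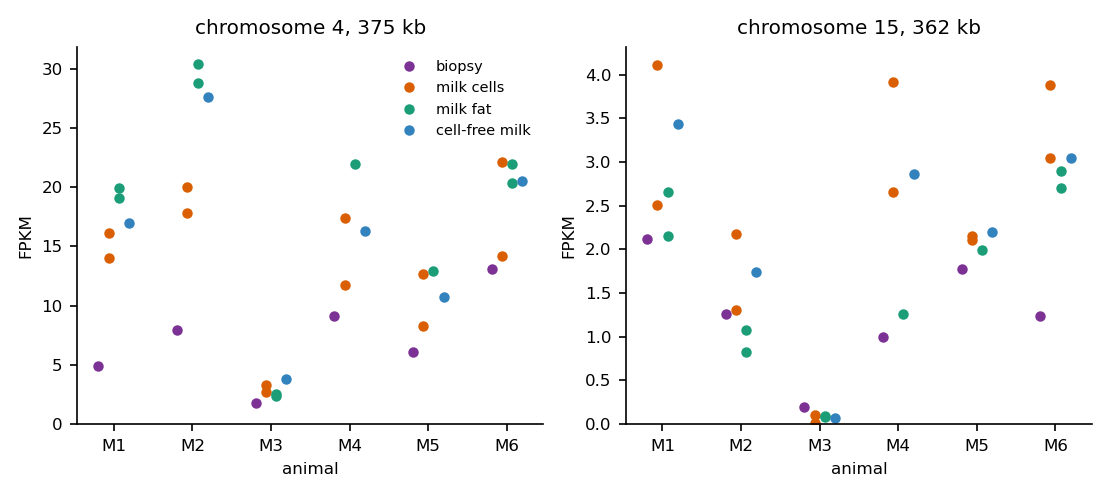
FPKM of the chromosome 4 member (left) and the chromosome 15 member (right) in every sample, by animal and coloured by sample type. All M3 samples lie at or under 3.77 FPKM on the left and 0.195 FPKM on the right, below every sample of the same type from the other animals.

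The other members with a difference between animals were less uniform. At chr11:105571184-105876643 (305460 bases; F = 13.4, adjusted p = 0.0299), M2 milk cells held 10.7 and 5.04 FPKM and no other milk cell sample exceeded 1.33, while no biopsy, milk fat or cell-free sample of any animal exceeded 0.656 FPKM. At chr9:62300260-62862803 (562544 bases; adjusted p = 0.0421), M5 held the lowest value in milk cells, milk fat and cell-free milk, with 9.07 FPKM against 9.53 to 17.2 in milk fat, but M2 held the lowest in biopsies. At chr3:54790981-55989930 (1198950 bases; adjusted p = 0.0458), M3 held the lowest value in the 3 milk types and M6 the highest in all 4, and the milk cell ranges of the animals overlapped.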

How the data were processed

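Single-end RNA sequencing of poly(A) RNA was performed by the authors, who aligned reads to rheMac2 with TopHat and Bowtie (FastQC is also listed, and versions are not given in the sources used here) and deposited FPKM values, estimated with Cufflinks for Ensembl release 67 transcripts. Cufflinks divides reads that could come from several overlapping transcripts, and an exact 0 can be a failed estimate. The read counts behind the FPKM are not given in the table, so no counting interval was computed. The 3 technical runs of a sample were averaged, and 6 columns that no sample label matched were not used. Of 42701 identifiers, 0 matched the name tables, so positions are printed.

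Samples were grouped by label. Median-of-ratios size factors came from 21792 transcripts with a nonzero FPKM in each of the 34 samples, and the scaled log2(FPKM + 1) was tested with limma 3.58.1 in R 4.3.3 (trend, no block) on transcripts with a mean of at least 1 FPKM, with Benjamini-Hochberg adjustment over all transcripts tested. Detection shares used unscaled FPKM. Samples of an animal deviated together (mean correlation 0.162 to 0.439 over 7 pairs of sample types or days, lowest 0.0798), and since the pairs come from the same animals, fits with the animal as a replicate block were also made. On simulated data with known changes, 95.5% were recovered with 0 false calls for biopsy against milk fat (13413 transcripts), 98% with 1 false call for day in milk fat (12609 transcripts) and 87% with 4 false calls for day in biopsies (13762 transcripts). The planted changes all exceeded the 3-fold threshold, lay only in transcripts of higher level and had independent normal noise. Recovery of smaller changes, or in the lower transcripts that include many members, was not tested. Tables and plots were made in Python 3.11.15 with pandas 2.3.3, scipy 1.17.1 and matplotlib 3.10.9.

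Members were named by rule: the 5 highest means, the called members of largest change in each comparison (up to 3 per direction among biopsy, milk cells and milk fat, 1 elsewhere, or the smallest day p), the 3 widest, the 2 transcripts on either side of 300000 bases, and the member with the smallest p between animals. The members, the comparison set and the rule were chosen with earlier results of these data known. Alternatives were other scalings, pseudocounts, filters, detection thresholds and units, and leaving out each animal. Fits at an adjusted p alone were added after seeing the data.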

Additional observations from a re-analysis of the deposited data

Results flagged for a closer look

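In 13 of 131 groups of 4 to 10 samples examined, a single sample lay farther from the others than Dixon's 95% limit allows. That limit assumes independent normal values. FPKM is skewed, and groups share animals, samples and loci, so the number that chance would give is not known. Milk cells of M2 at day 30 were high at chr13:89408183-89712646 (127.5 FPKM, against 0.937 to 24.5 in the others), chr2:114636656-114996919 (56.05 FPKM, against 2.92 to 8.77) and chr11:105571184-105876643 (10.68 FPKM, against 0.169 to 1.33). At day 90, M2 was high at the chromosome 11 member again (5.043 FPKM, against 0.155 to 1.06) and at chr17:80454530-80875626 (57.89 FPKM, against 37.7 to 44.5). Milk cells of M5 at day 90 were high at the chromosome 13 member (67.83 FPKM, against 1.18 to 12.2) and at chr7:169046291-169359348 (51.6 FPKM, against effectively 0).

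In cell-free milk, M2 was high at the chromosome 17 member (65.3 FPKM, against 46.1 to 53.1), M4 at chr5:11326169-11720617 (0.03868 FPKM, against at most 0.0132) and M6 at chr3:180058572-180446018 (0.09088 FPKM, against at most 0.0333). In milk fat at day 30, M6 was high at that chromosome 3 member (0.364 FPKM, against at most 0.142) and M2 at chr7:129550574-130286307 (35.56 FPKM, against 23.8 to 28.8). The gap between the medians of members and of 10 to 50 kb transcripts, milk cells minus cell-free milk, was -0.08542 in M3 and 0.0551 to 0.138 in the other 5 animals. The cell-free sample of M3 was also the only one with a skim label. What set these samples apart was not tested.

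Among 15 members compared for opposite changes with day in milk cells and milk fat, 0 were found.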

How the results depend on the processing

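Of 410 values recomputed under an alternative, 310 stayed within 1.5 times the reported count or within 1 SD of the reported value, and 100 moved. Direction was not scored for these values, and some splits of members by direction turned, as given below. Of 755 values of named members, 694 kept their direction and the threshold they had passed, 61 fell short of it, and 0 reversed. Differences that newly passed 3-fold under an alternative were counted as kept. For the chromosome 9 member starting at 21015934, milk cells minus biopsy was 1.33 and reached 2.6 under an alternative. In what follows, comparisons come in the order biopsy against milk fat, biopsy against milk cells, milk cells against milk fat, cell-free milk against milk fat, cell-free milk against milk cells, cell-free milk against biopsy, and day in milk cells.

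With a pseudocount of 0.1, called members numbered 15, 31 and 7 in the first 3 comparisons (11.5%, 19.5% and 4.58% of those tested, beside 15.7%, 12.4% and 5.58% of all transcripts). Between cell-free milk and milk fat they were 2 of 144, beside 228 of all 12730 transcripts. Between cell-free milk and biopsy they were 23 of 145, beside 1881 of 13700, and for day in milk cells 1 of 167, beside 56 of 13815. Between biopsy and milk cells the members' share thus passed that of all transcripts, whereas with a pseudocount of 1 it was below, at 3.77% against 6.07%. The same turn was seen between cell-free milk and biopsy, where a pseudocount of 1 gave 9 of 145 members beside 1020 of 13700 transcripts. It was also seen for day, through 1 member, where a pseudocount of 1 gave 0 of 167 beside 13 of 13815. With a mean of at least 5 FPKM called members numbered 2 of 37, 3 of 46 and 1 of 46 in the first 3 comparisons. Of all transcripts, 648 of 6479, 357 of 6628 and 126 of 6629 were called there. Between cell-free milk and milk cells 0 of 55 members were called, beside 15 of 6643 transcripts. Between cell-free milk and biopsy 2 of 40 were, beside 407 of 6533. With FPKM summed over overlapping members, 2 of 139 loci were called between biopsy and milk cells, beside 856 of 14152 in all. Between cell-free milk and biopsy 5 of 128 loci were, beside 1016 of 13683. At an adjusted p alone the counts were 62, 70, 51, 33, 2, 70 and 9.

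Those counts at an adjusted p alone became 139, 139, 79, 169 (cell-free milk against biopsy) and 2 (day) with a mean of at least 0.1 FPKM. They became 22, 19, 17, 13, 0 and 21 in the first 6 comparisons with at least 5 FPKM, and 205, 196, 83, 5 (cell-free milk against milk cells), 213 (cell-free milk against biopsy) and 0 (day) with no filter. Lowering the filter also changed the split for biopsy against milk fat, from 39 higher in milk fat and 23 in biopsies to 64 and 75 at 0.1 FPKM and 66 and 139 with none. With no filter, 95 were higher in milk cells and 101 in biopsies (from 53 and 17), and 88 in cell-free milk and 125 in biopsies (from 53 and 17). Unscaled FPKM left 1 between cell-free milk and milk cells and 0 for day. The replicate block gave 65 between cell-free milk and milk fat, 9 between cell-free milk and milk cells and 40 for day, and moved no other count by over 1.5 times. Members that differed between animals numbered 30 without scaling, 3 with a pseudocount of 0.1, 8 with no filter and 3 with no trend. The counts in this paragraph stand without the shares of all transcripts and so do not set members apart from other transcripts.

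The gap between the medians of members and 10 to 50 kb transcripts was 0.101 (milk cells minus biopsy) and -0.05734 (milk fat minus milk cells) with at least 5 FPKM, and -0.2433 (milk fat minus milk cells) and -0.3321 (biopsy minus cell-free milk) with a pseudocount of 0.1. With no filter, where most transcripts lie near 0, it was 0.01032, 0.0004488, -0.001207, 0.0001908 and -0.02086 in the second to the sixth comparison. Unscaled FPKM moved the median of all transcripts to 0.23, 0.24 and -0.27 in the 3 comparisons with biopsies (first, second and sixth).

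The share of members detected, in the order biopsy, milk cells, milk fat and cell-free milk, was 57.47%, 50.99%, 45.14% and 46.21% at 0.01 FPKM, 15.5%, 19.22%, 15.76% and 18.65% at 1 FPKM, 50.39%, 45.81%, 41.25% and 41.54% for the highest member of each locus, 33.53%, 33.1%, 28.93% and 30.95% for spans over 500000 bases, and 28.01%, 28.78%, 25.21% and 27.17% when detection in all 3 runs was required. Scaled FPKM gave 33.56% in cell-free milk.

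Leaving out each animal in turn, called members ranged over 6 to 7, 5 to 7, 2 to 3, 0 to 0, 0 to 1 and 9 to 10 in the first 6 comparisons and were 0 for day in every sample type. The 0 between cell-free milk and milk cells came without M2, M3, M4 or M5. At an adjusted p alone the ranges were 48 to 57, 62 to 72, 37 to 53, 16 to 32, 0 to 4, 59 to 62 and, for day in milk cells, 0 to 36, with 16 to 19 between cell-free milk and milk fat without any animal but M5, and 0 for day in milk fat and biopsies. Members that differed between animals ranged from 0 (without M3) to 4. The median gap ranged over 0.111 to 0.160, 0.149 to 0.203, -0.188 to -0.124, -0.152 to -0.106, 0.0576 to 0.0962 and -0.257 to -0.192. The detected share ranged over 38.41% to 39.53%, 37.07% to 38.58%, 32.67% to 33.34% and 34.12% to 34.35%.

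The limits are those of the unit. FPKM carries no read counts, low members cannot be told from absent ones, the division of reads among overlapping transcripts is an estimate, and 633 members were too low to test.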
